A study of Caenorhabditis elegans with 12 samples.

Results

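Core and linker histones were measured as polyadenylated transcripts in single oocytes of adult wild-type Caenorhabditis elegans, an untreated nematode whose oocytes queue in the gonad arm. The genes were taken from the count table by symbol, as his- or hil- followed by digits only, which found 80 of 46903 genes. By coding length and textbook names they were 9 linker histone genes, 17 of H2A, 16 of H2B, 15 of H3, 5 of the H3.3 family, 16 of H4 and 2 with a short coding sequence (his-39 and his-73) left without a class. The study sampled oocytes at positions -1, -3 and -5, where -1 lies next to the spermatheca, and asked how their transcripts differ with the age of the oocyte. There were 4 oocytes for each of the 3 positions, all with the same wild-type genotype and no treatment. Each library held 1 oocyte and the labels do not say which animal it came from. A position was therefore taken as 1 sample, and no difference between positions below carries a test or a p-value.

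Core histones pair up as H2A with H2B and H3 with H4 to form the protein spool of the nucleosome, and linker histones bind the DNA between spools. Most core histone genes are copied many times, lack introns, and are transcribed for DNA replication into messages that end in a stem-loop instead of a poly(A) tail. H3.3 is the form of H3 placed outside replication. Oocytes store histone messages and proteins that the embryo uses before it transcribes its own genome. The libraries sample the 3' ends of transcripts that carry a poly(A) tail, so messages without a tail lie outside what it is built to capture. Reads are PCR products without molecular identifiers, and the 95% intervals given below (exact Poisson for levels, exact binomial for shares) cover counting error only.

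The libraries held 8358019 to 20446599 reads assigned to genes, and 3 reads in 1 library stood for 0.146 to 0.337 CPM (reads scaled to the library size, itself adjusted by edgeR's TMM factors). Replicates 1 and 3 of oocyte -3 stood apart: their median correlation with the other libraries was 0.896 and 0.916, against 0.940 to 0.952 for the other 10. They also had the fewest genes detected, 8814 and 8289 against at least 9387. All 12 oocyte markers were measured and held 0.874% to 3.35% of reads. Markers of the gonadal sheath and spermatheca held at most 0.0765%, in replicate 4 of oocyte -5, those of sperm at most 0.00271%, of intestine at most 0.0319%, of hypodermis at most 0.0564% and of muscle 0.0327% to 0.157%. Their part in the histone values was not tested.

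The gene models separated the histone genes with reads from those without. In 31 of the 80 genes the counted gene model ends at the stop codon or 1 base past it, and together these 31 held 16 reads in 12 oocytes. The H2A gene his-16 held 9 of the 16, and 38.96% of its exon bases overlap another gene. The other 49 genes have 38 to 894 annotated exon bases past the stop codon and held 1189353 reads. Of these 49 genes, 47 had reads and 46 passed the filter on low counts, while his-70 of the H3.3 family and the linker gene hil-8 had none. Since the reads come from 3' ends, a gene model that stops at the coding sequence leaves its 3' end uncounted if the message runs further, and the deposited counts cannot tell this from an absent message. Near-identical copies may also lose reads that map to several places, which was not tested. Statements below on absence are therefore limited to the counted models and the counted reads.

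**Figure D1:**
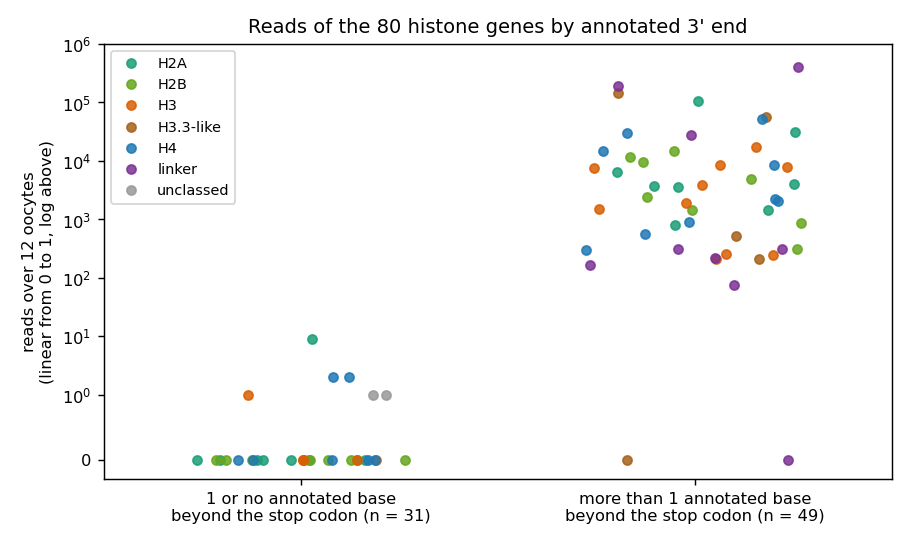
Reads summed over the 12 oocytes (vertical axis, linear from 0 to 1 and logarithmic above) for each of the 80 histone genes, coloured by class and split by whether the counted gene model runs more than 1 base past the stop codon. The 31 genes on the left hold 16 reads in all, and 47 of the 49 on the right have reads.

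Genes that share a symbol showed the same split. The name table gives 14 shared symbols to 36 of the genes, while RefSeq names each apart. The 9 of these 36 with bases past the stop codon held 212 to 9500 reads each, and the 27 without held 5 reads in all. The H3 gene his-25 held 212 reads, for example, whereas his-9 and his-13, under the same symbol, held 0 and 1. The H2B gene his-11 held 310 reads and his-15 and his-44, under its symbol, had none. The authors' counting command carried no option for reads that fit several copies, and their treatment was not stated otherwise. Near-identical copies may lose such reads, so low counts here do not show absent messages. How far reads were lost or divided among copies remains uncertain. The 27 genes are among the 31 described above and are not a further instance.

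Most of the histone genes lie in runs with neighbours closer than 50000 bases, and the runs differed in reads. The table's coordinates put 67 genes into 12 runs. A run of 13 genes on chromosome II (13817759 to 13828697) held 532 reads, with 11 gene models ending at the stop codon. A run of 14 genes on chromosome V (8847393 to 8898645) held 546 reads, with 12 such models. By contrast, 4 genes on chromosome IV (7485733 to 7488956), his-59 to his-62, held 111736 reads, and every model there runs past the stop codon. Within the 31 divergent gene pairs, whose gene models lie 95 to 292 bases apart, both partners were measured in 15, a single partner in 4 and neither in 12. In 8 of the 15 pairs the same partner had the higher CPM per kb of exon in 12 of 12 oocytes. The H2A gene his-68 was above the H4 gene his-67 in every oocyte, his-60 (H4) above his-59 (H3) and his-61 (H2A) above his-62 (H2B). The partners of these pairs were thus unequal in counted reads per kb. Their gene models also differ past the stop codon, as at 101 bases in his-61 and 46 in his-62. The part of this in the counts was not tested.

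The reads of the family were concentrated in few genes. The linker gene hil-4 held 34.0% of all histone reads and hil-5 held 16.2%, followed by the H3.3 gene his-72 with 12.03%, the H2A gene his-68 with 8.82%, the H3.3 gene his-74 with 4.81% and the H4 gene his-60 with 4.33%. These 6 genes made up 80.2%. The 46 measured genes ranged from 0.891 to 2344 CPM in their mean over the 12 oocytes, and 9 of them reached 100 CPM. Per kb of exon, the order by median over the 12 oocytes was hil-4 (2399), his-72 (1260), hil-5 (1231), his-68 (1035), his-60 (555), his-74 (498), his-61 (345), his-37 (336), hil-2 (152.2) and his-48 (147 CPM per kb). No neighbours in this order had ranges that stayed clear of each other over the 12 oocytes. The closest approach to a fixed order was his-68 above his-60, and his-74 above his-61, in 12 of 12 oocytes each. Without length scaling the order differed. Median CPM put hil-5 (1068) above his-72 (805) and his-74 (289) above his-60 (259). Whether reads from 3' ends grow with exon length was not tested. The shares per kb of linker, H2A and H4 genes below were not recomputed without that scaling. Among intronless core genes with bases past the stop codon the median was 2883 reads, against 17105 for the 6 core genes with an intron (his-35, his-37, his-41, his-71, his-72 and his-74). That contrast is a description of 34 and 6 genes.

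Histone genes held a larger share of reads at position -3 than at the other positions. The share was 0.549% at -1 (95% interval 0.547% to 0.551%), 0.819% at -3 (0.817% to 0.821%) and 0.622% at -5 (0.620% to 0.624%). The lowest and highest oocytes had 0.426% and 0.674% at -1, 0.616% and 0.970% at -3, and 0.502% and 0.743% at -5. These groups overlapped, and the top 2 shares at -3 (0.970% and 0.936%) belonged to the replicates 1 and 3 that stand apart. The same 2 oocytes had the lowest shares of reads in oocyte markers, 1.22% and 0.874% against at least 1.395% in the other 10, and the part of this in the histone values was not tested. Without these oocytes the share at -3 was 0.669%, within the range of single oocytes at both other positions. Linker genes held 0.264%, 0.458% and 0.322% of reads at -1, -3 and -5, and core genes 0.286%, 0.362% and 0.301%. The H3.3 family stayed at 0.116%, 0.1098% and 0.117%. In single cells, more messages of a gene and fewer messages of all others give the same share and cannot be told apart.

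**Figure D2:**
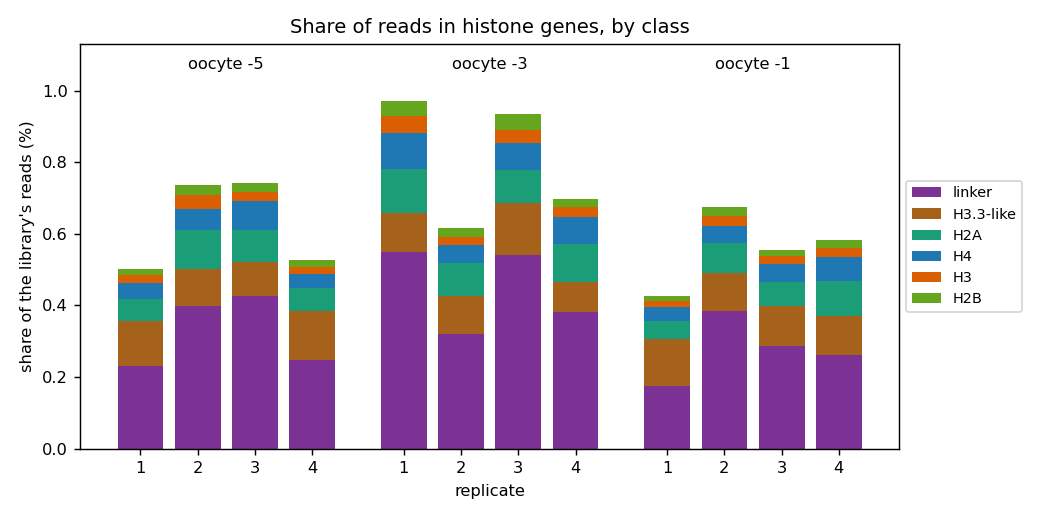
Share of each library's reads in histone genes (percent), stacked by class, for the 4 replicates at each position. Replicates 1 and 3 of oocyte -3 reach 0.970% and 0.936%, and replicate 1 of oocyte -1 is lowest at 0.426%.

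Among the linker genes, hil-4 was the most abundant histone message in the oocytes (chromosome V, 4754313 to 4755469, plus strand). Its level was 888, 2716, 1694 and 1566 CPM in replicates 1 to 4 of oocyte -1. In oocyte -3 it was 4441, 1985, 3271 and 2674 CPM, and in oocyte -5 it was 1393, 2949, 3139 and 1414 CPM. From the summed counts hil-4 stood at 1564 CPM at -1 (1554 to 1574), 3132 at -3 (3118 to 3146) and 2111 at -5 (2098 to 2123). The log2 ratio was -1.00 for -1 against -3, with values from -1.26 to -0.71 when each oocyte was left out in turn. It was -0.43 for -1 against -5, and -0.14 without replicate 1 of oocyte -1. It was 0.57 for -3 against -5, and 0.35 without replicate 4 of oocyte -5. The oocytes of the 3 positions overlapped, since replicate 2 at -1 lay above replicates 2 and 4 at -3.

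The linker gene hil-5 was the next most abundant of the linker genes. It measured 506, 1141, 889 and 825 CPM at -1, 2051, 999, 1902 and 1206 CPM at -3, and 640, 1137, 1261 and 716 CPM at -5. Its log2 ratios were -0.99 for -1 against -3, -0.21 for -1 against -5 and 0.78 for -3 against -5. Leaving out replicate 1 of oocyte -1 brought the -1 against -5 ratio to 0.03. Per kb, hil-4 made up 55.7% to 65.7% of the linker level in single oocytes and hil-5 28.3% to 37.4%, so the division between these messages was narrow in range while their sum was not.

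The linker gene hil-2 came after hil-5, at 109, 182, 97.6 and 95.4 CPM in oocyte -1. It stood at 393, 112, 218 and 120 CPM in oocyte -3, and at 83.4, 207, 228 and 105 CPM in oocyte -5. Replicate 1 of oocyte -3 was the highest of the 12, and without it the log2 ratio of -1 against -3 went from -0.87 to -0.39 and that of -3 against -5 from 0.51 to 0.03. The remaining linker genes were near the floor. The gene his-24, whose protein has a known part in germline silencing, measured 0.0973, 0.910, 0 and 1.59 CPM at -1, 0.0645, 3.70, 8.25 and 1.079 CPM at -3, and 1.74, 0.711, 1.94 and 1.03 CPM at -5. Its exon bases overlap other genes over 18.9% of their length.

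Sparse linker messages appeared in some oocytes and not in others. The gene hil-1 had no read in any oocyte -1, 5.03, 0, 2.85 and 0.0514 CPM in oocyte -3, and 0.238, 1.66, 0 and 0.858 CPM in oocyte -5. Against a floor of 3 reads over the 4 oocytes it was at least 40.05-fold lower at -1 than at -3, and at least 14.8-fold lower than at -5. Without replicate 1 of oocyte -3 the log2 ratio of -1 against -3 at the floor was -4.32 in place of -5.32. Without replicate 2 of oocyte -5 that of -1 against -5 was -3.17 in place of -3.89.

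The gene hil-3 lay higher at -5 than at -3. It measured 3.33, 1.11, 3.196 and 4.52 CPM in oocyte -5 against 0.387, 0.168, 0 and 0.0514 CPM in oocyte -3. Every oocyte at -5 lay above every oocyte at -3, with a log2 ratio of -4.47 for -3 against -5. In oocyte -1 it measured 0.0487, 3.18, 0.449 and 0.0997 CPM, and replicate 2 carried most of that sum. Without that oocyte the ratio of -1 against -5 was -4.49 in place of -2.19, and that of -1 against -3 was -0.02 in place of 2.28. Without replicate 1 of oocyte -3, its ratio for -1 against -3 was 3.46 and for -3 against -5 was -5.65.

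The gene hil-6 did not pass the filter, and was read in all 4 oocytes at -3 (1.74, 0.337, 1.49 and 0.720 CPM). It had no read at -5 and 0, 0, 0.112 and 0.299 CPM at -1. Against the floor hil-6 was at least 19.4-fold higher at -3 than at -5. The gene hil-7 measured 0, 6.55, 0 and 0 CPM at -1, 0, 4.71, 4.28 and 2.16 CPM at -3, and 3.96, 1.98, 0 and 0.114 CPM at -5. Its log2 ratios were -1.16 for -1 against -3 and -0.29 for -1 against -5, and -5.45 and -4.58 without replicate 2 of oocyte -1. For -3 against -5 the hil-7 ratio was 0.87, and 1.99 without replicate 1 of oocyte -5. In hil-7 single oocytes at 0 lay beside others at several CPM, and its positions overlapped. In hil-6 all 4 oocytes at -3 lay above the 8 others, and the highest at -1 was 0.299 CPM against 0.337 CPM for the lowest at -3.

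**Figure D3:**
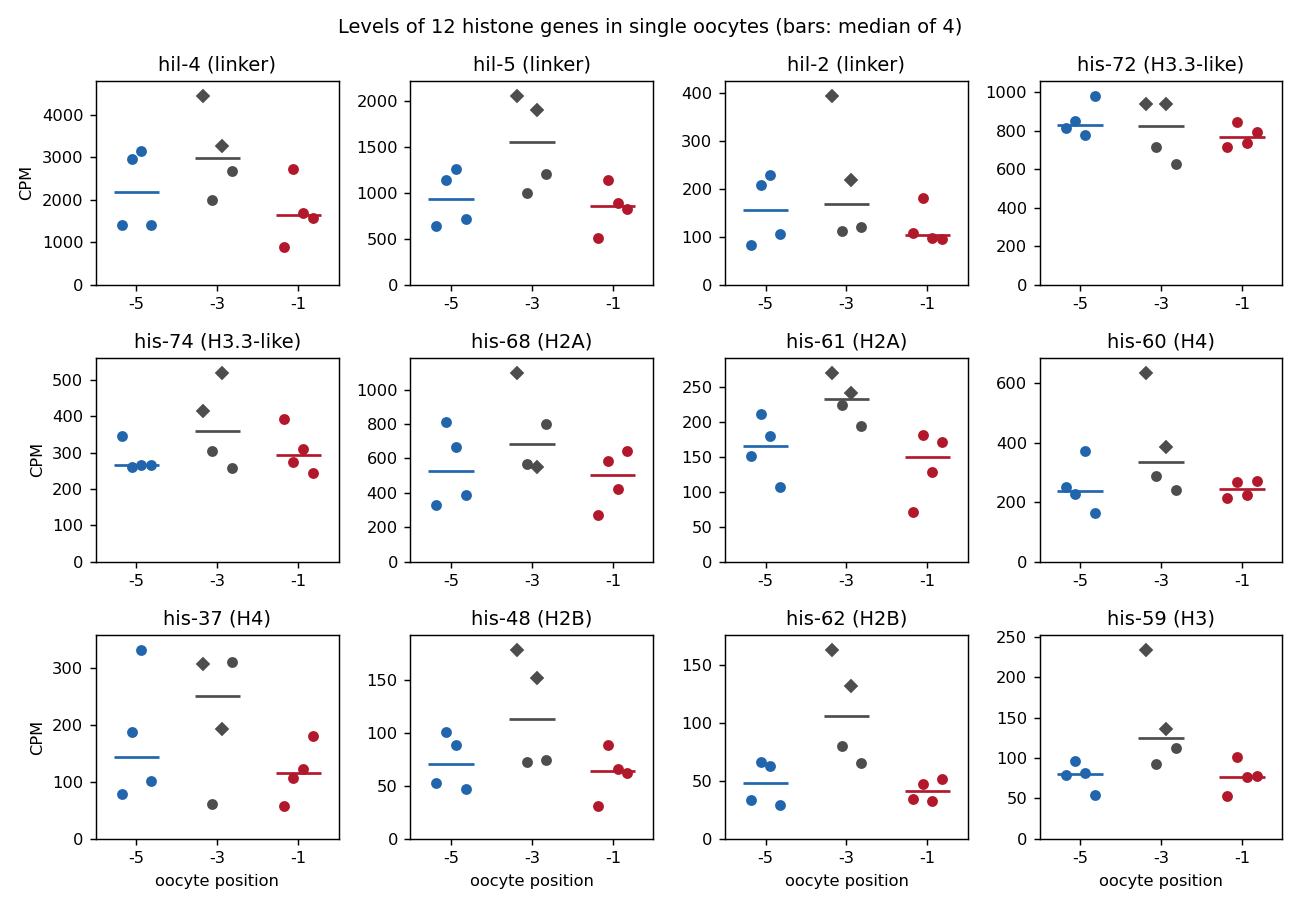
Level in CPM (vertical axes, from 0) of 12 histone genes in single oocytes by position. Points are the 4 oocytes, bars their median, and diamonds mark replicates 1 and 3 of oocyte -3. The 3 linker genes spread widely at each position, while his-72 stays between 627 and 980 CPM.

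The H3.3 family was led by his-72, which kept to a narrow range. The gene his-72 (chromosome III, 12367474 to 12369050, minus strand) measured 718, 844, 739 and 795 CPM in oocyte -1. In oocyte -3 his-72 stood at 938, 713, 937 and 627 CPM, and in oocyte -5 at 815, 849, 777 and 980 CPM. Levels from summed counts were 770, 799 and 870 CPM, with log2 ratios of -0.05 for -1 against -3, -0.18 for -1 against -5 and -0.12 for -3 against -5. Without the oocyte of largest effect these were -0.19 (replicate 4 of -3), -0.08 (replicate 4 of -5) and 0.01 (replicate 4 of -3). The groups overlapped in each comparison. Both of the oocytes that stand apart lay at 937 or 938 CPM, above the other 2 at -3.

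The H3.3 gene his-74, known as the germline form of the family, measured 392, 274, 311 and 244 CPM at -1. It was at 414, 303, 519 and 259 CPM at -3 and at 346, 262, 267 and 267 CPM at -5. The groups overlapped, and the log2 ratios of -0.26, 0.12 and 0.39 for -1 against -3, -1 against -5 and -3 against -5 became -0.48, -0.09 and 0.18 without the oocyte of largest effect (replicate 1 of -1, replicate 1 of -1 and replicate 3 of -3). The gene his-71, the other widely expressed H3.3 gene, was low at 3.70, 2.82, 3.59 and 0.598 CPM in oocyte -1. It measured 13.03, 2.10, 0.0620 and 1.49 CPM in oocyte -3, and 2.69, 2.53, 0.969 and 1.95 CPM in oocyte -5. Without replicate 1 of oocyte -3 its log2 ratio of -1 against -3 was 1.11 in place of -0.71, and that of -3 against -5 was -0.84 in place of 0.98. Without replicate 4 of oocyte -1 its ratio of -1 against -5 was 0.73 in place of 0.27.

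The gene his-69 was read in 4 of the 12 oocytes, at 0.910 and 3.24 CPM in replicates 2 and 4 of -1, 7.74 CPM in replicate 1 of -3 and 0.858 CPM in replicate 4 of -5. Its log2 ratios were 2.13 for -1 against -5 and 2.75 for -3 against -5, and -0.19 and -2.16 without replicate 4 of -1 and replicate 1 of -3. For -1 against -3 it was -0.62, and 4.29 without replicate 1 of -3. No read fell on his-70.

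Among the counted reads, messages of the H3.3 family outnumbered those of the H3 genes. Per kb they made up 82.8% of the summed level of both at -1, 76.3% at -3 and 81.4% at -5, with single oocytes from 70.5% to 87.4%. The value did not depend on length scaling, since counts alone gave 83.3%, 76.4% and 82.1%. Within the family his-72 made up 69.02%, 65.7% and 73.4% per kb. These shares concern polyadenylated transcripts, and H3 messages without a tail would add to the other side of the ratio. So would H3 reads missed by the counting. Of the 15 H3 genes, 5 held at most 2 reads, and their gene models end at the stop codon. Reads lost between near-identical H3 copies were not assessed.

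**Figure D4:**
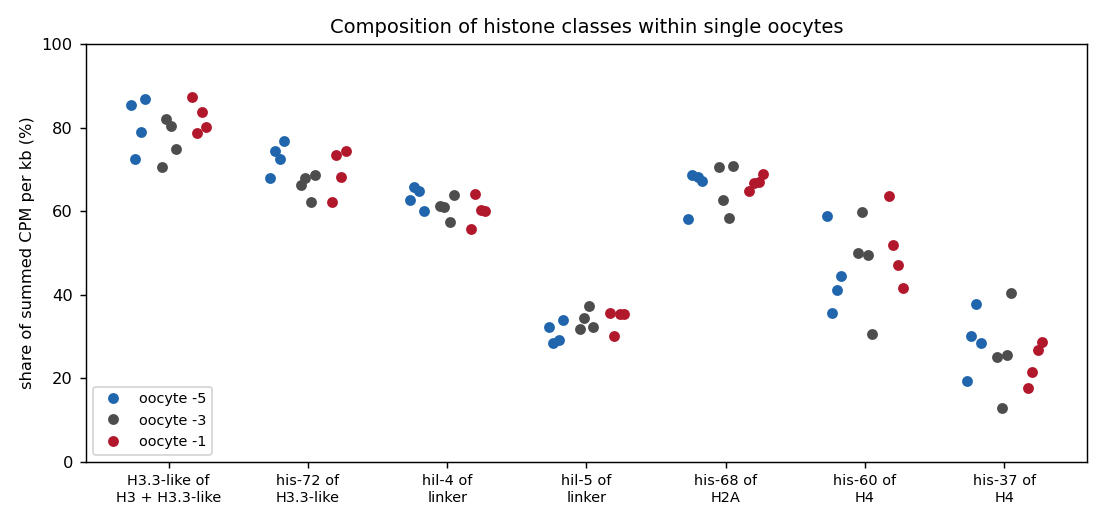
Share (percent of summed CPM per kb) of the H3.3 family in H3 and H3.3 messages, and of leading genes in their class. Points are the 4 oocytes at each position. The share of his-68 in H2A and of hil-4 in the linker class stay within 58.1% to 70.8% and 55.7% to 65.7%, while his-37 ranges from 12.97% to 40.5% of H4.

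Replication-type H3 messages were led by his-59 and his-45 in mean CPM over the 12 oocytes. By median CPM his-63 (42.5) lay above his-45 (35.4). The gene his-59 measured 52.6, 102, 75.9 and 77.7 CPM in oocyte -1, 233, 92.3, 136 and 112 CPM in oocyte -3, and 79.5, 96.6, 81.5 and 54.5 CPM in oocyte -5. Its log2 ratios were -0.98 for -1 against -3 and 0.93 for -3 against -5, which became -0.65 and 0.61 when replicate 1 of oocyte -3 was left out. Between -1 and -5 it was nearly level at 73.3 and 75.7 CPM. The gene his-45 measured 25.3, 32.1, 25.2 and 71.96 CPM in oocyte -1, 64.5, 26.4, 79.1 and 38.7 CPM in oocyte -3, and 32.2, 89.6, 50.4 and 29.6 CPM in oocyte -5. Its groups overlapped in every comparison, and without replicate 4 of oocyte -1 the ratio of -1 against -3 was -0.97 in place of -0.34 and that of -1 against -5 was -0.84 in place of -0.21.

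H4 messages came mainly from his-60 and his-37. The gene his-60 measured 213, 268, 223 and 270 CPM in oocyte -1, 633, 287, 386 and 241 CPM in oocyte -3, and 249, 229, 370 and 162 CPM in oocyte -5. From summed counts his-60 was at 243 CPM at -1 and 239 at -5, with 383 at -3 resting largely on replicate 1. Without that oocyte the log2 ratio of -1 against -3 was -0.31 in place of -0.66, and that of -3 against -5 was 0.33 in place of 0.68. The gene his-37, an H4 gene with an intron, varied more than his-60, at 57.1, 107, 123 and 180 CPM in oocyte -1. It was at 307, 60.2, 193 and 309 CPM in oocyte -3, and at 79.2, 186, 331 and 101 CPM in oocyte -5. In single oocytes his-60 made up 30.5% to 63.5% of the H4 level per kb and his-37 12.97% to 40.5%.

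H2A messages were led by his-68, at 274, 587, 425 and 642 CPM in oocyte -1. It stood at 1096, 567, 548 and 800 CPM in oocyte -3 and at 327, 814, 664 and 388 CPM in oocyte -5. Its share of the H2A level per kb was 67.3%, 66.9% and 66.4% at -1, -3 and -5, nearly the same at each position while its level differed by log2 -0.69 between -1 and -3. Without replicate 1 of oocyte -1 that difference was -0.40. The gene his-61 (chromosome IV, 7485733 to 7486254, minus strand) measured 70.4, 181, 129 and 170 CPM in oocyte -1 against 269, 223, 241 and 194 CPM in oocyte -3. All 4 oocytes at -3 lay above all 4 at -1, with a log2 ratio of -0.80 for -1 against -3, or -0.49 without replicate 1 of oocyte -1. Oocyte -5, at 151, 211, 179 and 106 CPM, overlapped both.

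H2B messages were led by his-48 and his-62. The gene his-48 measured 31.002, 88.5, 66.5 and 62.4 CPM in oocyte -1, 179, 73.1, 152.5 and 74.8 CPM in oocyte -3, and 53.2, 101, 88.5 and 47.6 CPM in oocyte -5. The gene his-62 (chromosome IV, 7486519 to 7486962, plus strand), the divergent neighbour of his-61, measured 34.7, 47.8, 32.6 and 52.0 CPM in oocyte -1 and 163, 80.02, 132 and 65.7 CPM in oocyte -3. In oocyte -5 it was at 33.6, 66.1, 62.7 and 29.6 CPM. All 4 oocytes at -3 lay above all 4 at -1, and the log2 ratio was -1.36 for -1 against -3 and 1.26 for -3 against -5. Leaving out replicate 1 of oocyte -3 gave -1.11 and 1.01. In both of these H2B genes the replicates 1 and 3 of oocyte -3 were the highest of the 12.

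Between -1 and -3, most histone messages lay lower at -1. The H3.3 family had a summed log2 ratio of -0.12, which became 0.21 without the oocytes of -3 that stand apart. The median log2 ratio of the 46 measured genes was -0.73, beside 0.02 for all 8718 genes kept, and 42 of the 46 lay below 0, beside 48.7% of all genes. At least 2-fold lower at -1 were 10 of the 46, beside 9.51% of all genes, and at least 2-fold higher was hil-3 alone, beside 8.36%. The 10 were 4 linker genes, 4 of H2B, 1 of H2A and 1 of H3. Several of them were sparse. The linker genes hil-1, hil-7 and his-24 had means of 0.891, 1.98 and 1.76 CPM. The H2B gene his-11 had 2.05 and the H3 gene his-25 had 1.34 CPM. The remaining linker gene, hil-4, lay at the threshold (-1.00). With a mean of at least 5 CPM required, 5 genes were at least 2-fold lower. The lowest ratios among genes of at least 1 CPM were his-24 (-2.12), his-25 (-1.94) and his-11 (-1.71). The highest were hil-3 (2.28), his-8 (0.27) and his-18 (0.24). Without the oocyte of largest effect these 6 became -3.41, -4.94, -0.62, -0.02, -0.55 and 0.83. The median was -0.51 without replicate 1 of oocyte -3 and -0.32 without both oocytes that stand apart. The count of 10 became 6 if replicate 1 of oocyte -3 was left out. It became 18 and 17 if replicate 4 or replicate 2 of oocyte -1 was left out, and 16 for replicate 4 of oocyte -3. The number at least 2-fold higher was 4 if replicate 1 of oocyte -3 was left out and 0 if replicate 2 of oocyte -1 was.

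In this comparison 5 of the 46 genes had all 4 oocytes at -1 below all 4 at -3, beside 2.99% of all genes, and none had the reverse, beside 3.43%. The 5 were the H2A genes his-61, his-35 and his-3 and the H2B genes his-62 and his-41, named here because of that count. The intron-bearing his-35 measured 20.9, 19.7, 12.002 and 22.1 CPM at -1, 24.8, 24.3, 33.7 and 25.8 CPM at -3, and 19.7, 20.3, 24.02 and 20.3 CPM at -5. Its 4 oocytes at -3 thus lay above the other 8. Its divergent neighbour his-41 measured 2.53, 9.46, 9.53 and 9.27 CPM at -1 and 16.5, 12.96, 38.6 and 17.7 CPM at -3, with 31.1% of its exon bases shared with another gene. The gene his-3 measured 6.33, 4.82, 5.50 and 2.99 CPM at -1 and 21.5, 7.40, 9.61 and 9.92 CPM at -3.

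Between -3 and -5, histone messages lay higher at -3. This comparison shares the oocytes at -3 with the preceding comparison. The median log2 ratio was 0.51, beside -0.01 for all genes kept, and 8 of the 46 lay below 0, beside 50.8% of all genes. At least 2-fold higher at -3 were 5 of the 46, beside 7.99% of all genes, and at least 2-fold lower were 2, beside 9.1%, so the shares past 2-fold were under or not far from the background. The highest ratios were his-69 (2.75), his-1 (1.74) and his-24 (1.28), and the lowest hil-3 (-4.47), his-11 (-1.05) and his-4 (-0.93). Without the oocyte of largest effect the 6 became -2.16, 2.16, 0.12, -5.65, -2.14 and -0.30. A single gene, his-35, had all 4 oocytes at -3 above all 4 at -5 (2.86% of all genes), and hil-3 had the reverse (3.15%). The median was 0.32 without replicate 1 of oocyte -3, 0.34 without replicate 4 of oocyte -5, 0.78 without replicate 2 of oocyte -5, and 0.15 without both oocytes that stand apart. The count of 5 reached 14 without replicate 2 of oocyte -5, 9 without replicate 4 of -3 and 8 without replicate 2 of -3. The count of 2 became 4 when replicate 3 of -3 or replicate 1, 3 or 4 of -5 was left out, and 1 for replicate 4 of -3 or replicate 2 of -5.

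Between -1 and -5, the histone genes differed little. This comparison shares its oocytes with both of the others. The median log2 ratio was -0.25, beside -0.01 for all genes kept, and 36 of the 46 lay below 0, beside 51.0% of all genes. At least 2-fold lower at -1 were 5 of the 46, beside 7.41%, and at least 2-fold higher were 2, beside 5.35%. In none did the 4 oocytes of the positions stay clear of each other, beside 2.64% of all genes that were higher and 2.89% that were lower. The lowest ratios were his-11 (-2.76), hil-3 (-2.19) and his-25 (-1.55), and the highest his-69 (2.13), his-1 (1.61) and his-38 (0.91). Without the oocyte of largest effect the 6 became -3.79, -4.49, -4.54, -0.19, 1.04 and 0.33. The median was -0.03 without replicate 1 of oocyte -1, -0.06 without replicate 2 of oocyte -5, -0.42 without replicate 4 of oocyte -1 and -0.48 without replicate 4 of oocyte -5. The count of 5 became 3 if replicate 1 of oocyte -1 was left out and 8 for replicate 4 of oocyte -5. The count of 2 became 1 if replicate 4 of oocyte -1 was left out and 4 for replicate 2 of oocyte -5. The difference between -1 and -5 was thus of the size that a single oocyte could move.

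**Figure D5:**
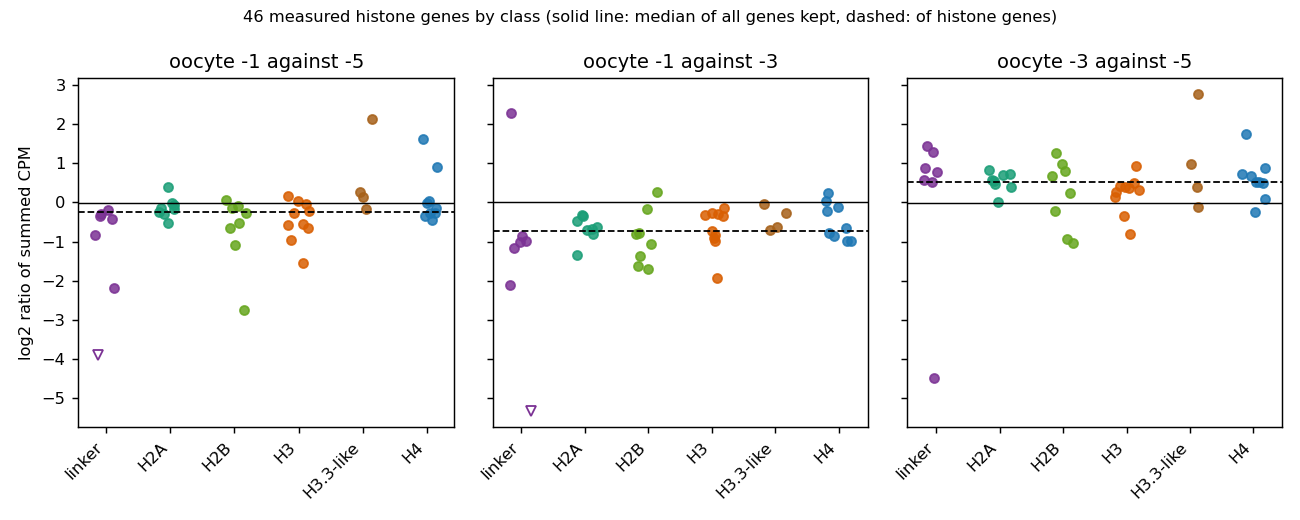
Log2 ratio of summed CPM for the 46 measured histone genes in the 3 comparisons, by class. The solid line is the median of all 8718 genes kept and the dashed line that of the histone genes (-0.25, -0.73 and 0.51), and open triangles mark hil-1, whose ratio uses the floor of 3 reads.

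The summed levels of the classes differed in how far they lay from level. The summed linker level was 2466 CPM at -1, 4905 at -3 and 3170 at -5, a log2 ratio of -0.99 for -1 against -3. Without replicate 1 of oocyte -1 that ratio was -0.73, and without the oocytes of -3 that stand apart it was -0.57. The summed H2B level had a ratio of -1.04, H4 of -0.78, H3 of -0.74 and H2A of -0.69, while the H3.3 family had -0.12. Leaving out replicate 1 of oocyte -3 gave -0.52 for H4 and -0.43 for H3, leaving out replicate 1 of oocyte -1 gave -0.42 for H2A, and leaving out replicate 4 of oocyte -3 gave -0.27 for the H3.3 family. Without both oocytes that stand apart these became -0.46, -0.44, -0.28, -0.56 and 0.21. For -3 against -5 the ratios were 0.63 for linker, 0.74 for H2B, 0.62 for H4, 0.52 for H3, 0.52 for H2A and 0.02 for the H3.3 family. Leaving out replicate 1 of oocyte -3 gave 0.36 for H4 and 0.22 for H3, and leaving out replicate 4 of oocyte -3 gave 0.18 for the H3.3 family. Without both oocytes that stand apart they were 0.21 for linker, 0.16 for H2B, 0.29 for H4, 0.06 for H3, 0.39 for H2A and -0.30 for the H3.3 family. In no class did the summed level keep the oocytes of any 2 positions clear of each other. The difference between classes was not tested. Gene by gene the H3.3 family was not apart, since its sum rests mostly on his-72 and his-74. The median ratio of its 4 measured genes was -0.44 for -1 against -3, with 4 below 0. The medians of the other classes ran from -1.00 to -0.54. For -3 against -5 it was 0.68, with 1 of 4 below 0, and the other classes had 0.34 to 0.78. The low his-69 and his-71 count in these medians as much as his-72.

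The authors' deposited table of each comparison gave similar placings. These tables come from the same 12 oocytes, so they are not independent of the ratios above. The share of all their genes below 0 was not computed. Among the 8718 genes kept here it was 48.7% for -1 against -3, 51.0% for -1 against -5 and 50.8% for -3 against -5. In the authors' deposited table, 37 of 41 listed histone genes lay below 0 for -1 against -3, with a median log2 fold change of -0.69. The authors' deposited table for -1 against -5 had 33 of 40 below 0 with a median of -0.24, and that for -3 against -5 had 7 of 40 below 0 with a median of 0.45.

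Genes that work with histones were set beside them from lists of related genes. The H2A.Z gene htz-1 stood at 968, 1227 and 1044 CPM at -1, -3 and -5, and none of the 3 measured variant and centromeric histone genes was past 2-fold in any comparison. The centromeric H3 genes hcp-3 and cpar-1 measured 22.7, 29.7 and 19.5 CPM and 32.8, 47.1 and 44.99 CPM. The sperm H2A variant htas-1 had no read. Among 9 genes of histone message 3' end processing, cpf-1, a subunit of the cleavage stimulation factor, was the single gene past 2-fold, beside 17.9% of all genes either way for -1 against -3 and 17.1% for -3 against -5. It stood at 311, 719 and 305 CPM at -1, -3 and -5, with log2 ratios of -1.21 for -1 against -3 and 1.23 for -3 against -5. These cpf-1 values come from summed counts and were not recomputed without the oocytes of -3 that stand apart. The stem-loop binding protein gene cdl-1 stood at 329, 266 and 309 CPM.

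None of the 22 genes of histone chaperones and deposition was past 2-fold in any of the 3 comparisons, beside 12.8% of all genes past 2-fold either way for -1 against -5, 17.9% for -1 against -3 and 17.1% for -3 against -5. Their median log2 ratios were 0.11 for -1 against -3 and -0.04 for -3 against -5, and the largest differences were ssl-1 (0.98) and gfl-1 (-0.66) for -1 against -3. The NASP homologue nasp-2, a carrier of H3 and H4, was the most abundant at 1504, 1390 and 1310 CPM. Of 13 S-phase genes, cye-1, which encodes cyclin E, was the single gene past 2-fold, at 38.8 CPM at -1 and 79.8 CPM at -5 (log2 -1.04), beside 7.41% of all genes at least 2-fold lower there. The S-phase median was 0.11 for -1 against -3 and -0.15 for -3 against -5, beside 0.02 and -0.01 for all genes kept. Below 0 lay 5 of the 13 for -1 against -3, beside 48.7% of all genes, and 10 for -3 against -5, beside 50.8%. The histone medians were -0.73 and 0.51, and the difference between the lists was not tested.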

How the data were processed

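RNA of 12 single oocytes was sequenced, 4 at each of 3 positions, and samples were grouped by the labelled position. The authors deposited raw read counts per gene. The submitters' processing notes name cutadapt 1.18 for trimming, FastQC 0.11.5, the aligner STAR and featureCounts 1.5.3, whereas the counting command in the file headers is of version 1.6.4. That command used WormBase annotation release 271 and set nothing for strand, multi-mapping or overlapping genes, per the file headers, so close copies, overlapping and antisense genes are uncertain. Coordinates are as printed in the deposited counts, and their build was not stated. The authors also deposited log2 fold changes from DESeq2 1.32.0, which were used only where named. No row lacked a gene.

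The members and gene lists were chosen with earlier results of these data known. Symbols came from RefSeq by coordinates for all 80 genes, since the name table gives close copies 1 symbol (22 names differ). Classes came from coding length in Ensembl's WBcel235 annotation (H4 312, H2A 384, H2B 369 or 372, H3 411 bases). The linker class was set by the hil- symbol, and his-24 and the H3.3 family by textbook name. The linker gene hil-7 thus has its class by symbol, with a short coding length of 120 to 201 bases. edgeR 4.0.16 (R 4.3.3) filtered low counts by its default, which kept 8718 genes, and gave TMM factors. A level is the summed count of 4 oocytes over their summed scaled library sizes, a ratio uses a floor of 3 summed counts, and 2-fold is the threshold for a count. The ratio and interval code was tested on simulated counts. No 2 libraries of a position agreed within sampling noise (chi-square over its degrees of freedom at least 47.9).

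Named with values in every oocyte are the 2 genes of highest mean CPM in each class, every linker gene and every H3.3 gene, and with ratios the 3 highest and 3 lowest of at least 1 CPM in each comparison. Genes named beyond this rule were chosen after their values were seen. Alternatives were DESeq2 1.42.0 size factors, library totals, no filter, means of at least 5 CPM, medians of oocytes, core genes only, and leaving out oocytes. Stem-loops, polyadenylation signals and sequence uniqueness were planned and are not analysed here.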

Additional observations from a re-analysis of the deposited data

Results flagged for a closer look

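Among 100 groups of 4 oocytes, 11 held an oocyte whose gap to its nearest neighbour exceeded Dixon's 95% critical share of the group's range. For normally distributed values in groups chosen beforehand, chance gives about 1 in 20. These groups included genes named for their high or low ratios in the same oocytes, such as his-25, his-38 and his-4. Some groups had reads in a single oocyte, as for hil-7 in oocyte -1. The count of 11 therefore cannot be compared with 1 in 20, and no excess is inferred. In oocyte -1, replicate 2 was far above the others for hil-2 (181.5 CPM), hil-3 (3.18 CPM) and hil-7 (6.55 CPM), replicate 3 for his-25 (3.03 CPM), and replicate 4 for his-38 (24.9 CPM) and his-45 (71.96 CPM). In oocyte -3, replicate 1 was far above the others for his-69 (7.74 CPM) and his-71 (13.03 CPM). In oocyte -5, replicate 2 stood out for his-4 (27.03 CPM), replicate 4 for his-69 (0.858 CPM) and replicate 1 for his-74 (346 CPM). Their cause was not tested.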

How the results depend on the processing

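The 3 medians kept their direction under every alternative run. Of 169 values of the main results, 130 stayed within their allowance and 39 did not. The allowance was a standard deviation between oocytes for medians and shares, and a fixed ratio for counts. Only the medians could be scored as reversed, since counts and shares are never below 0. The median for -1 against -3 was -0.317 without both oocytes of -3 that stand apart. Scaling by library totals moved the median of all genes to 0.21 for -1 against -3 and -0.13 for -3 against -5, and the histone medians to -0.53 and 0.39. Genes at least 2-fold higher and lower numbered 0 and 1 (-1 against -5), 0 and 5 (-1 against -3) and 1 and 0 (-3 against -5) with a mean of at least 5 CPM. With core genes only, 3 were lower for -1 against -5, 0 higher and 6 lower for -1 against -3, and 3 higher and 1 lower for -3 against -5. Without both oocytes that stand apart, 2 were higher and 5 lower for -1 against -3, and 2 higher and 4 lower for -3 against -5. By medians of the oocytes, 2 were higher for -1 against -3. Leaving out each oocyte in turn gave 1 to 4 higher and 3 to 8 lower for -1 against -5, 0 to 4 higher and 6 to 18 lower for -1 against -3, and 5 to 14 higher and 1 to 4 lower for -3 against -5. The histone share without hil-4 was 0.382% at -1, 0.527% at -3 and 0.408% at -5. Of the 138 ratios of measured genes, 56 changed sign when some oocyte was left out, 53 of them among the 113 within 2-fold and 3 among the 25 past 2-fold. The following concerns ratios past 2-fold. The ratio of hil-6 for -1 against -5 was -0.0113 by medians. With each oocyte left out in turn, hil-3 ranged from -0.0163 to 3.46 for -1 against -3, his-69 from -0.19 to 3.88 for -1 against -5 and from -2.16 to 4.50 for -3 against -5, the low ends without replicate 2 of -1, replicate 4 of -1 and replicate 1 of -3. The cause was not tested. The filter at 10 CPM, the length scaling and the H3.3 share without each oocyte were chosen after seeing the data. No paired analysis was possible because the results come from no test and the labels do not tie replicate numbers to animals. Genes under 5 CPM, 14 of the 46, limit every count past 2-fold.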
